A study of Mus musculus with 5 samples.

Results

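The 50 genes described here are the developmental homeobox genes outside the Hox clusters that belong to the *Dlx*, *Irx*, *Lhx*, *Msx*, *Otx*, *Emx*, *Meis*, *Nkx* and sine oculis (*Six3* and its relatives) families. They were taken by gene symbol from the 32286 features of the expression matrices. The set was chosen with earlier results of these data known, so counts over it are not those of a set chosen blind. The list holds 14 *Nkx*, 8 *Lhx*, 6 sine oculis, 6 *Dlx*, 6 *Irx*, 3 *Meis*, 3 *Msx*, 2 *Otx* and 2 *Emx* genes, all protein-coding. Their expression was measured by single-cell RNA sequencing in 5 synovial sarcomas (SyS) of *hSS2* mice, which carry a human *SS18::SSX2* cDNA at the Rosa26 locus that stays silent until Cre recombinase acts. In this model TATCre protein is injected into the limb of pups 8 days old, so the fusion is switched on in whichever cells take the protein up, and tumours were collected at morbidity. The labels name the tumours by histology, with biphasic (BP, 2 tumours), monophasic (MP, 1), both monophasic and biphasic areas (MP+BP, 1) and poorly differentiated with monophasic areas (PD+MP, 1). All 5 tumours express the fusion and no tumour or tissue without it was included, so the comparison cells are the other cells of the same tumours. The study's mice were of a mixed strain and 2 to 6 months old, the age of each tumour-bearing mouse is not given in the sources used here, and the 2 BP tumours carry labels with a shared number, so whether they came from 1 animal is not known.

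Homeobox genes encode transcription factors with a DNA-binding homeodomain, and those of these families divide the embryo into regions and cell lineages. Msx, Dlx and Meis factors pattern the limb bud, Nkx and Irx factors divide the neural tube, Otx2 and Six3 mark the anterior brain, and Lhx factors specify neuron types. In cells that do not use them, many of these genes are kept silent by Polycomb complexes, and the study asked how the SS18::SSX fusion acts on such loci. The question put to the data was which of these genes are transcribed in the tumour cells of each tumour and not in the stromal, endothelial and macrophage cells beside them.

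Of 51670 called cells, 39559 passed the filters, and the libraries held between 89996321 and 118649103 UMIs (unique molecular identifiers, each standing for 1 captured RNA molecule). Clusters were named from marker genes that include none of the 50 genes, and the 50 genes were kept out of the clustering. SyS-like cells numbered 4062, 6966, 5148, 5826 and 6378 in BP replicate 1, BP replicate 2, MP, MP+BP and PD+MP, the order in which values of the 5 tumours are given throughout. Stromal cells, which are pericyte-like and fibroblast-like cells together, were few, at 264, 180, 536, 261 and 158. In PD+MP 120 of the 158 were fibroblast-like, against at most 10 in any other tumour. Endothelial-like cells numbered between 80 and 650 and macrophage-like cells between 400 and 957. Macrophage markers summed to between 219.98 and 602 CPM (counts scaled to a common total of 1000000) in SyS-like cells against at least 32396 CPM in macrophage-like cells, and endothelial markers to between 124 and 266 CPM against at least 6303 CPM in endothelial-like cells. Each pair of libraries shared between 15 and 33 cell barcodes. The tumours also differed in sex-linked RNA, since the Y-linked *Uty* reached 135 CPM in PD+MP against at most 0.0396 CPM in the other 4 (SyS-like sums), and the part of this in any difference of PD+MP was not tested. The UMIs of each class were summed within each tumour before any comparison, so the tumour and not the cell was the unit.

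RNA of SyS marker genes was also present in the other classes, mostly at a low level. SyS marker genes had a median level in stromal cells between 3.80% and 14.5% of their SyS-like level, in endothelial-like cells between 1.66% and 6.82%, and in macrophage-like cells between 1.89% and 5.55%. RNA of a homeobox gene near these levels in another class cannot be told apart from RNA carried over from the tumour cells. The medians are a guide and not a limit. In stromal cells of PD+MP single markers ran from 1.14% to 628% of their SyS-like level. Whether the RNA carried over was free RNA was not tested.

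A gene was counted as on in a tumour where its SyS-like level reached 5 CPM and was at least 4 times its level in each of the stromal, endothelial-like and macrophage-like cells of that tumour, with a comparison level under 3 counts set to 3 counts. By this rule 15, 9, 20, 9 and 12 of the 50 genes were on in the 5 tumours, out of 25, 22, 27, 28 and 24 at 5 CPM or more. Over all 32286 features the same rule was met by 2.27%, 1.69%, 2.64%, 1.30% and 1.30%, and over the features at 5 CPM or more by 6.25%, 4.76%, 7.45%, 3.57% and 3.73%. MP, which had the most stromal cells, had the most genes on by this rule, and at a fold of 2 MP and MP+BP both had 24. In all, 24 genes were on in at least 1 tumour, 2 of them (*Meis1* and *Lhx5*) in all 5, 7 in 4 tumours, 4 in 3, 4 in 2 and 7 in 1. A further 7 genes reached 5 CPM and were on in none (*Meis3*, *Lhx6*, *Six5*, *Irx3*, *Irx4*, *Irx5* and *Emx2*), and 19 stayed under 5 CPM in every tumour. Of the 61 pairs of gene and tumour at level but not on, 16 missed the rule only against classes with at most 3 counts of the gene. Of these 16, 5 were in BP replicate 2 and 6 in PD+MP. Of the other 45, 42 had the gene within 4-fold in stromal cells, 11 in endothelial-like and 5 in macrophage-like cells. The counts depended on how doublets, droplets with cells of more than 1 type, were removed, and with doublets kept they were 1 in BP replicate 2, 13 in MP and 2 in MP+BP. With pericyte-like cells alone as the stromal class PD+MP had 6 genes on.

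**Figure D1:**
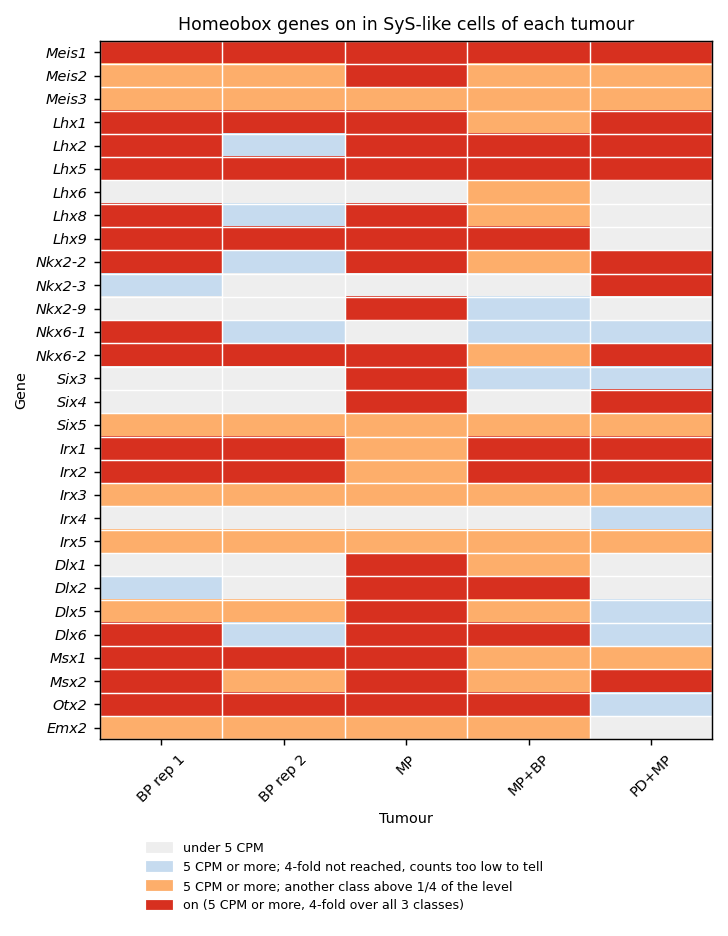
Status of 30 of the 31 genes (rows) that reached 5 CPM in SyS-like cells of at least 1 tumour (columns). The fill of a square tells a gene that was on, a gene at 5 CPM or more that was not on, and a gene under 5 CPM, and the *Meis1* and *Lhx5* rows are on in all 5 columns.

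Tested over the 5 tumours with the tumour as a block, 29 of 40 testable genes were higher in SyS-like than stromal cells and none was lower at an edgeR adjusted p under 0.05, where 16.1% of 18120 genes tested were higher and 13.3% lower. Against endothelial-like cells 34 of 36 were higher and 1 lower, with 30.4% of 18349 genes higher and 22.8% lower. Against macrophage-like cells 36 of 37 were higher and 1 lower, with 36.1% of 18165 genes higher and 26.3% lower. The filter on low counts keeps a gene that is high in either class, so the genes tested are not all 50. Without the filter all 50 were tested, and 28, 38 and 40 were higher where 10.6%, 22.6% and 26.3% of all genes were, with 8.74%, 15.9% and 17.6% of all genes lower. The median log2 fold change of the genes tested was 2.05 over stromal, 4.12 over endothelial-like and 3.84 over macrophage-like cells, against 0.16, 0.17 and 0.25 over all genes tested, and 4.10 over endothelial-like cells with *Irx6* set to its bound. These sizes depended on doublet removal. With doublets kept the medians were 1.45, 2.49 and 1.945, with 21, 33 and 36 genes higher and 1 lower in each comparison, and at the automatic doublet threshold they were 1.72, 3.23 and 2.92.

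The 27 genes higher in all 3 comparisons came from every family but *Emx*. Without scaling the same comparisons gave 29, 34 and 36 genes higher and none lower, although 71.0%, 67.7% and 76.8% of all calls were then on the higher side against 54.7%, 57.1% and 57.9% with scaling. DESeq2 gave 28, 33 and 36 higher and 1 lower each. The gene that DESeq2 called lower than in stromal cells was *Meis3*, the 1 of the 40 that edgeR also placed lower at an unadjusted p under 0.05. The classes were built from the same cells, so these tests ask how the 50 genes divide between classes and not whether the classes exist. Genes that were on had median stromal levels between 6.71% and 15.9% of their SyS-like levels. The rule itself bounds these values, since it asks for at least 4 times the stromal level. The part of RNA carried over from tumour cells in the comparisons was not tested.

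**Figure D2:**
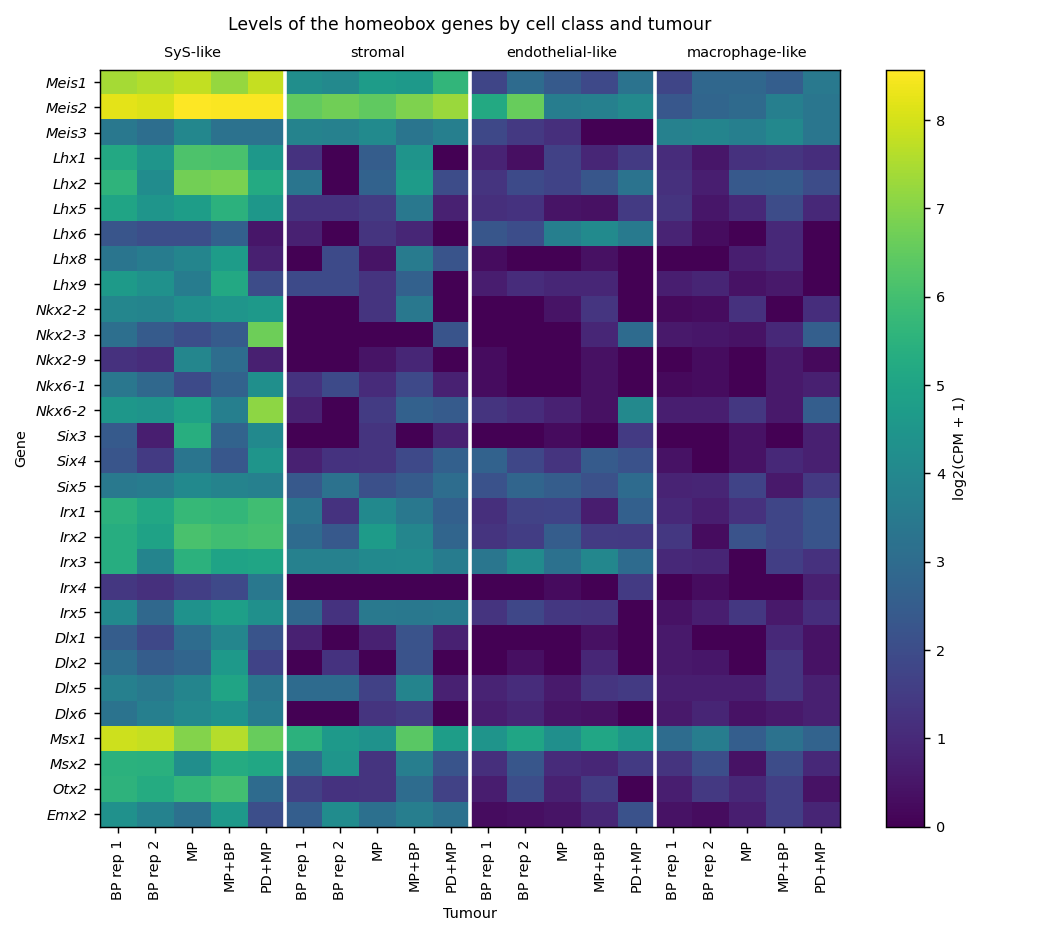
Levels of 30 of the 31 genes (rows) as log2(CPM + 1) in summed SyS-like, stromal, endothelial-like and macrophage-like cells of each of the 5 tumours (columns). Most rows are brightest in the SyS-like block, *Meis2* and *Irx3* are also visible in stromal cells, and *Lhx6* is brighter in endothelial-like cells of 3 tumours than in SyS-like cells of any.

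The promoters of 4 genes are shown because their patterns are the ones the results return to. *Meis1* was on in every tumour, *Nkx2-3* and *Nkx6-2* were highest in PD+MP, and *Otx2* was on in the other 4 tumours and lowest in PD+MP. Each sequence is a RefSeq window on GRCm38.p6 from 250 bases before to 50 bases after an annotated start, read 5′ to 3′ on the strand of the gene, and capitals mark CpG. The windows are chr11:19018920-19019219 (minus strand) for *Meis1*, chr19:43612075-43612374 (plus strand) for *Nkx2-3*, chr7:139582748-139583047 (minus strand) for *Nkx6-2* and chr14:48667595-48667894 (minus strand) for *Otx2*.
Meis1: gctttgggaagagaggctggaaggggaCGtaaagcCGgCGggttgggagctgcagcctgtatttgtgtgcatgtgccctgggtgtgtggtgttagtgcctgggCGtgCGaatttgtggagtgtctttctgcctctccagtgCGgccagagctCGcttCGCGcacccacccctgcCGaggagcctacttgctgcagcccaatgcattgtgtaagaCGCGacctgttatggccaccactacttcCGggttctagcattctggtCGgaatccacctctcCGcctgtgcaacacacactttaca
Nkx2-3: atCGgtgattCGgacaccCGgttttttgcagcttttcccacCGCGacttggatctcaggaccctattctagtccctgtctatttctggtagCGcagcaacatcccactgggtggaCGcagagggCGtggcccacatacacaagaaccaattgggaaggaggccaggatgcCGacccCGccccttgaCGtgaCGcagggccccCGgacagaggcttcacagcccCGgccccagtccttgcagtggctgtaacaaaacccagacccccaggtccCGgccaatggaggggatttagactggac
Nkx6-2: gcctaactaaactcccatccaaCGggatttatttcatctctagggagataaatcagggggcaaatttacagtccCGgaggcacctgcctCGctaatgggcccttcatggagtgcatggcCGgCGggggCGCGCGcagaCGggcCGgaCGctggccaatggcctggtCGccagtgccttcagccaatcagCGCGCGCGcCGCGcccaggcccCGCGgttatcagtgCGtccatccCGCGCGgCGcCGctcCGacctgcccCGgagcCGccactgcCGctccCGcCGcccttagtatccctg
Otx2: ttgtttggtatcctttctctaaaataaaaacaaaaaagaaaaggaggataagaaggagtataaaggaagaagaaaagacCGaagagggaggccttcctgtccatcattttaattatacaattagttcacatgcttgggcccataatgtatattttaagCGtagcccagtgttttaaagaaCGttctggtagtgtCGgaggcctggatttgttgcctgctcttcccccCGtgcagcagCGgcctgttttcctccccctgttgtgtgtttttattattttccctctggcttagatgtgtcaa
CpG is the pair of bases that carries DNA methylation, and Polycomb targets are known for CpG-rich promoters. The *Meis1*, *Nkx2-3*, *Nkx6-2* and *Otx2* windows held 15, 15, 32 and 6 CpG. The *Otx2* window belongs to a start 6.17 kb inside the gene, while the other 3 lie at the 5′ end of theirs. RefSeq windows were matched for 37 of the 50 genes, and these held a median of 21 CpG (range 4 to 40) against 7 over the windows of 27025 genes. The median was 17 in the 19 windows of genes on in at least 1 tumour, 19 in the 6 of genes at level but on in none and 21.5 in the 12 of genes under 5 CPM in every tumour, and the difference was not tested. TAATTA, a core bound by many homeodomains, was in 8.11% of the 37 windows and 5.31% of all windows on either strand, and TGACAG, the core bound by Meis factors, in 21.6% and 19.3%. A match is a description of letters and not a binding site.

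Among the Meis genes, which encode TALE homeodomain cofactors that bind DNA together with Pbx and Hox proteins, *Meis1* and *Meis2* were transcribed in all tumours. *Meis1* (chr11:18879817-19018985) was at 171, 192, 219.9, 147 and 222 CPM in SyS-like cells and at 17.6, 15.5, 25.4, 23.3 and 48.4 CPM in stromal cells. The SyS-like and stromal values did not overlap, and the tumours lay within 2-fold of each other. The log2 fold change was 2.69 (SE 0.24, edgeR adjusted p = 0.00011) over stromal cells, 5.20 (SE 0.22) over endothelial-like cells and 4.50 (SE 0.23) over macrophage-like cells. *Meis2* (chr2:115863064-116065839), which has similar roles in the proximal limb, was at 297, 275, 379, 363 and 364 CPM against 89.6, 103, 88.5, 120.1 and 156 CPM in stromal cells. It was higher than in stromal cells in each tumour (log2 fold change 1.37, SE 0.16, edgeR adjusted p = 0.00052), but reached 4-fold only in MP. In endothelial-like cells *Meis2* was at 36.0 and 93.9 CPM in the 2 BP tumours and between 11.3 and 15.5 CPM in the other 3. *Meis3* behaved differently, at 9.74, 7.59, 14.5, 8.38 and 8.48 CPM in SyS-like cells and at 12.6, 13.5, 12.1, 14.9 and 9.20 CPM in macrophage-like cells. It was the only one of the 37 genes tested that was lower in SyS-like than macrophage-like cells (log2 fold change -0.96, SE 0.22, edgeR adjusted p = 0.0034), a call lost without scaling (edgeR adjusted p = 0.15). Over stromal cells its log2 fold change was -0.64 (SE 0.22, edgeR adjusted p = 0.060).

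The Iroquois genes, also of the TALE class, sit in 2 clusters of 3 genes each. *Irx1* (chr13:71957921-71963723) was at 44.0, 34.6, 52.8, 49.8 and 59.9 CPM in SyS-like cells, and *Irx2* (chr13:72628820-72634198) at 39.8, 29.3, 67.6, 60.3 and 64.9 CPM. In stromal cells *Irx1* lay between 1.41 and 16.0 CPM and *Irx2* between 4.23 and 25 CPM. Both genes were on in 4 tumours and missed the rule in MP, where their stromal levels were highest, and their log2 fold changes over stromal cells were 2.31 (SE 0.34) and 2.07 (SE 0.30), with edgeR adjusted p of 0.0016 and 0.0014. *Irx3*, known with *Irx5* for early limb patterning, was at 39.3, 13.6, 44.1, 30.05 and 32.1 CPM in SyS-like cells. It was also present in stromal cells, at 12.7, 12.7, 16.0, 16.1 and 11.2 CPM, and in endothelial-like cells, at 9.20, 16.6, 8.16, 14.8 and 6.90 CPM. In BP replicate 2 the endothelial-like level exceeded the SyS-like one. *Irx5* was at 15.6, 6.45, 19.5, 27.8 and 18.7 CPM in SyS-like and between 1.41 and 10.4 CPM in stromal cells. *Irx3* changed by 0.92 (SE 0.24) over stromal cells, and *Irx5* by 0.94 (SE 0.26), with edgeR adjusted p of 0.022 and 0.025. Both calls over stromal cells were lost under some alternatives, 5 for *Irx3* and 6 for *Irx5*, and the call of *Irx3* over endothelial-like cells was lost without BP replicate 1, without MP and without PD+MP (edgeR adjusted p at most 0.11). *Irx4* was at 1.61, 1.27, 2.05, 2.73 and 9.90 CPM, without a UMI in stromal cells, which places SyS-like cells at least 8.43-fold higher with 3 counts over the group in place of 0, while *Irx6* was at most 2.59 CPM.

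Most LIM-homeodomain genes that reached 5 CPM were on in several tumours. *Lhx5* (chr5:120431699-120441223), with *Lhx1* a factor of neuron differentiation in the brain and spinal cord, was at 31.0, 21, 26.4, 44.2 and 22 CPM in SyS-like and at 1.41, 1.41, 1.81, 9.86 and 0.745 CPM in stromal cells. The values of the classes did not overlap, and MP+BP had the highest level in both. *Lhx1* was at 35.1, 21, 71.1, 68.9 and 23.0 CPM and *Lhx2*, which acts in the limb bud and forebrain, at 46.3, 16.9, 106, 114 and 37.1 CPM. Both were highest in MP and MP+BP and lowest in BP replicate 2. The log2 fold changes over stromal cells were 3.28 (SE 0.40) for *Lhx5*, 3.34 (SE 0.57) for *Lhx1* and 2.89 (SE 0.40) for *Lhx2*, with edgeR adjusted p between 0.00053 and 0.0030. *Lhx9*, the close relative of *Lhx2*, was at 24.2, 19.4, 11, 35.4 and 2.95 CPM and was on in every tumour but PD+MP. *Lhx8*, a factor of forebrain cholinergic neurons, was likewise highest in MP+BP and lowest in PD+MP, at 9.16, 11.1, 14.1, 25.9 and 0.671 CPM. Within PD+MP 1 SyS-like cluster of 112 cells held 46.0 CPM of *Lhx8*, where the median over the 6 clusters of that tumour was 0.101 CPM. It was not called over stromal cells (log2 fold change 1.63, SE 0.95, edgeR adjusted p = 0.23), while only 2 UMIs fell in all endothelial-like cells, so that the SyS-like level was 108 times theirs (95% counting interval from 29.8 to 889.9).

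*Lhx6*, which guides forebrain interneurons, was the 1 gene of 36 tested that was lower in SyS-like than endothelial-like cells. It was at 3.79, 3.20, 3.19, 5.23 and 0.434 CPM in SyS-like cells and at 3.89, 3.10, 11.9, 16.3 and 10.4 CPM in endothelial-like cells. In the 2 BP tumours the classes were about equal, and in the other 3 endothelial-like cells were higher. The log2 fold change was -1.60 (SE 0.53, edgeR adjusted p = 0.029). The call was lost without scaling, without MP and without MP+BP, with an edgeR adjusted p of at most 0.097, and its call as higher than in stromal cells was lost in 13 alternatives.

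Of the 14 Nkx genes, 5 were on in at least 1 tumour. *Nkx2-2*, a ventral spinal cord factor downstream of Sonic hedgehog, was at 14.3, 13.7, 18.3, 21 and 23.1 CPM, within 2-fold over the tumours. It had 0 stromal UMIs in 3 tumours and 9.86 CPM in stromal cells of MP+BP (log2 fold change 3.20, SE 0.75, edgeR adjusted p = 0.013). *Nkx6-2* (chr7:139579376-139582797), which divides ventral progenitors with *Nkx6-1*, was at 22.4, 20.4, 28.9, 12 and 138 CPM. PD+MP was the highest by far and the other 4 lay within 3-fold of each other. The log2 fold change of *Nkx6-2* over stromal cells was 3.61 (SE 0.58, edgeR adjusted p = 0.0023). *Nkx2-3* (chr19:43612325-43615892), a gene of gut and spleen mesenchyme, was at 7.74, 4.52, 3.13, 4.56 and 102 CPM in SyS-like cells. Stromal cells held no *Nkx2-3* UMI in 4 tumours and 3.73 CPM in PD+MP, where endothelial-like and macrophage-like cells held 6.90 and 5.02 CPM. It was on in PD+MP alone, with a log2 fold change over stromal cells of 4.95 (SE 0.49, edgeR adjusted p = 0.00018) over the 5 tumours. This estimate rests on 5 stromal UMIs, all in PD+MP, so the size of the difference in the other 4 tumours was not measurable. *Nkx6-1* was at 9.60, 6.50, 2.84, 5.51 and 18.5 CPM and *Nkx2-9* at 1.35, 1.11, 14.1, 7.37 and 0.671 CPM, so they were highest in PD+MP and MP. With 2 stromal UMIs in all, *Nkx2-9* had a SyS-like level 17.9 times the stromal one (95% counting interval from 4.96 to 148).

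The sine oculis genes, which encode partners of Eya proteins in muscle, eye and sensory organ development, included the gene with the widest range between tumours. *Six3* (chr17:85613608-85629302), an eye field and forebrain factor, was at 4.37, 0.628, 40.5, 5.63 and 15.7 CPM, and on in MP alone. In stromal cells it had no UMI in 3 tumours and at most 1.45 CPM in the other 2 (log2 fold change 4.60, SE 0.48, edgeR adjusted p = 0.00025). *Six4* was at 3.78, 1.75, 9.07, 4.06 and 21.1 CPM and was on in MP and PD+MP. Its call over stromal cells (1.53, SE 0.44, edgeR adjusted p = 0.030) was lost in 8 alternatives. It was not called against endothelial-like cells (0.35, SE 0.53, edgeR adjusted p = 0.60), which held between 1.42 and 5.52 CPM. *Six5* was even at 9.92, 11.2, 15.6, 13.3 and 12.3 CPM, changed by 1.00 (SE 0.32, edgeR adjusted p = 0.046) over stromal cells, a call lost in 5 alternatives, and was on in none.

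Of the Dlx genes, which pattern the jaw, limb and forebrain, *Dlx6* was the one on in most tumours. It was at 8.65, 12, 15.3, 19.8 and 11.1 CPM in SyS-like cells and at most 1.79 CPM in stromal cells (log2 fold change 3.96, SE 0.56, edgeR adjusted p = 0.0012). Its neighbour *Dlx5* was at 12.2, 10.1, 13.9, 31.3 and 9.33 CPM, but stromal cells held between 0.745 and 13.4 CPM (1.31, SE 0.40, edgeR adjusted p = 0.040, lost in 7 alternatives). *Dlx2* was at 7.54, 4.74, 5.99, 23.2 and 2.28 CPM and *Dlx1* at 4.72, 2.60, 7.10, 14.3 and 3.66 CPM. All 4 were highest in MP+BP. *Msx1* (chr5:37820485-37824583), a target of BMP signalling in the limb bud, was at 242, 227, 126, 196 and 94.0 CPM in SyS-like cells. Its stromal levels were 44.4, 24.0, 19.6, 81.5 and 26.1 CPM, and endothelial-like cells held between 18.4 and 32.3 CPM. *Msx2*, with the same role, was at 43.5, 42.5, 17.9, 38.0 and 33.5 CPM. The log2 fold changes over stromal cells were 2.02 (SE 0.29) for *Msx1* and 2.03 (SE 0.35) for *Msx2*, with edgeR adjusted p of 0.0013 and 0.0032.

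*Otx2* (chr14:48657677-48673819), the head gap gene of the forebrain and midbrain, was at 45, 37.6, 49.9, 62.1 and 6.91 CPM in SyS-like cells and between 1.41 and 7.17 CPM in stromal cells. It was on in 4 tumours, and PD+MP lay below each of them by more than 5-fold in level. The log2 fold change over stromal cells was 3.59 (SE 0.45, edgeR adjusted p = 0.00065). *Emx2*, a gene of the cortex, urogenital tract and shoulder girdle, was at 19.4, 12.9, 8.12, 23.5 and 3.20 CPM in SyS-like and 4.94, 16.9, 7.98, 11.6 and 8.20 CPM in stromal cells. The values overlapped, and the change over stromal cells was -0.01 (SE 0.44, edgeR adjusted p = 0.99), while over endothelial-like cells it was 4.47 (SE 0.59). The 19 genes under 5 CPM in every tumour included *Lhx3*, *Lhx4*, *Nkx1-1*, *Nkx1-2*, *Nkx2-1*, *Nkx2-4*, *Nkx2-5*, *Nkx2-6*, *Nkx3-2*, *Nkx6-3*, *Six2*, *Six6*, *Irx6*, *Dlx3*, *Dlx4*, *Msx3*, *Otx1* and *Emx1*.

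**Figure D3:**
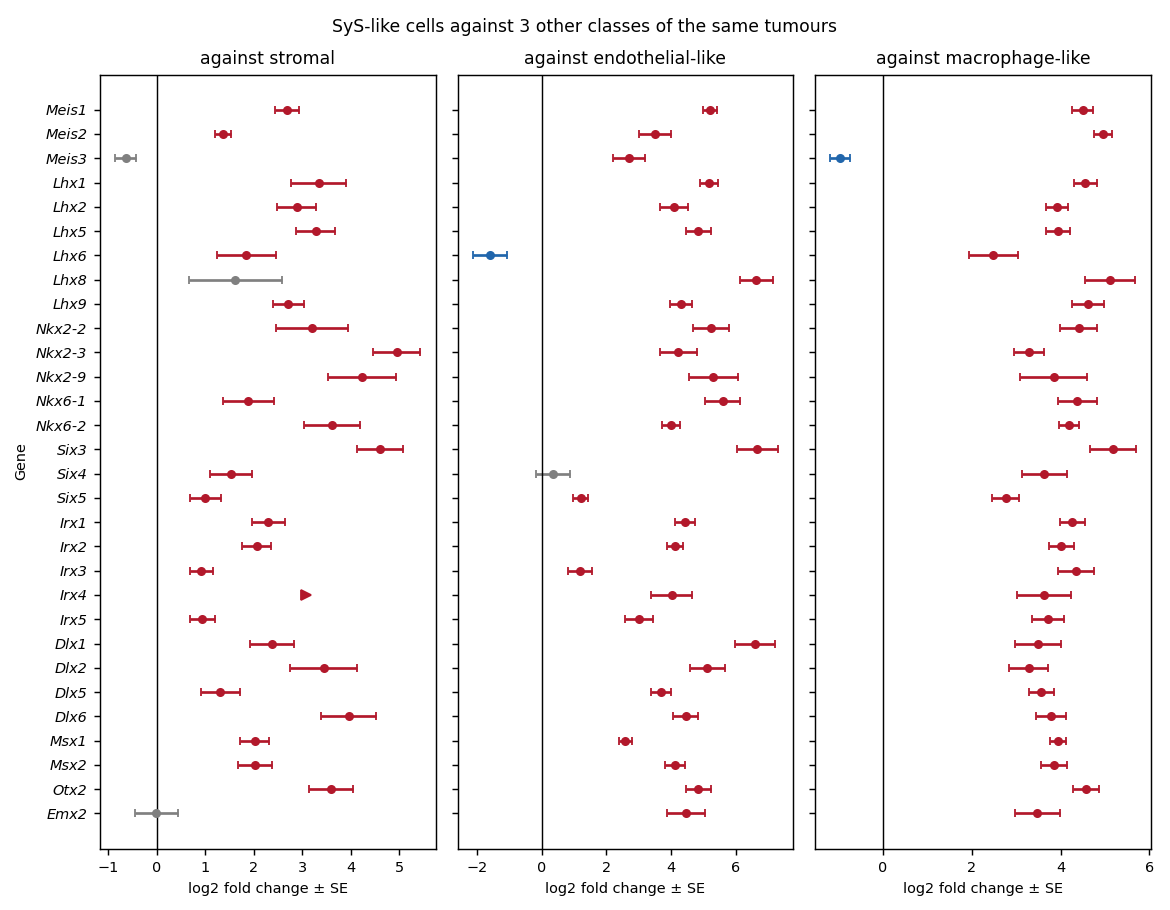
Log2 fold change of SyS-like over stromal, endothelial-like and macrophage-like cells (panels, with separate horizontal scales) for 30 of the 31 genes, as the estimate with its SE over 5 tumours. Red points were higher and blue points lower at an edgeR adjusted p under 0.05, grey points were not called, the triangle marks the lower bound for *Irx4*, and the 2 blue points are *Lhx6* (-1.60) and *Meis3* (-0.96).

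The level in SyS-like cells differed widely between tumours for some of these genes. Among the 31 genes that reached 5 CPM, the highest tumour was at least 10 times the lowest in 10 genes, and of all 12712 genes at that level 5.71% were. Of the 31, 6 stayed under 2-fold (*Meis1*, *Meis2*, *Meis3*, *Nkx2-2*, *Six5* and *Irx1*), where 62.1% of all genes did. The range was 64.5-fold in *Six3*, 38.6-fold in *Lhx8*, 32.5-fold in *Nkx2-3* and 21-fold in *Nkx2-9*. The highest level fell in MP+BP for 12 of the 31 genes, in PD+MP for 9, in MP for 8, in BP replicate 1 for 2 and in BP replicate 2 for none, against 20.1%, 34.2%, 19.2%, 15.2% and 11.4% of all genes. The lowest fell in BP replicate 2 for 15 and in PD+MP for 9, against 22.4% and 27.7%. By Dixon's test on log2(CPM + 1), PD+MP lay far from the other 4 tumours for *Nkx2-3*, *Otx2* and *Lhx6*, where 7.94% of all genes at that level had 1 such tumour and in 5.98% it was PD+MP. MP, MP+BP and PD+MP are 1 tumour each, so these are values of single tumours without a replicate check.

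**Figure D4:**
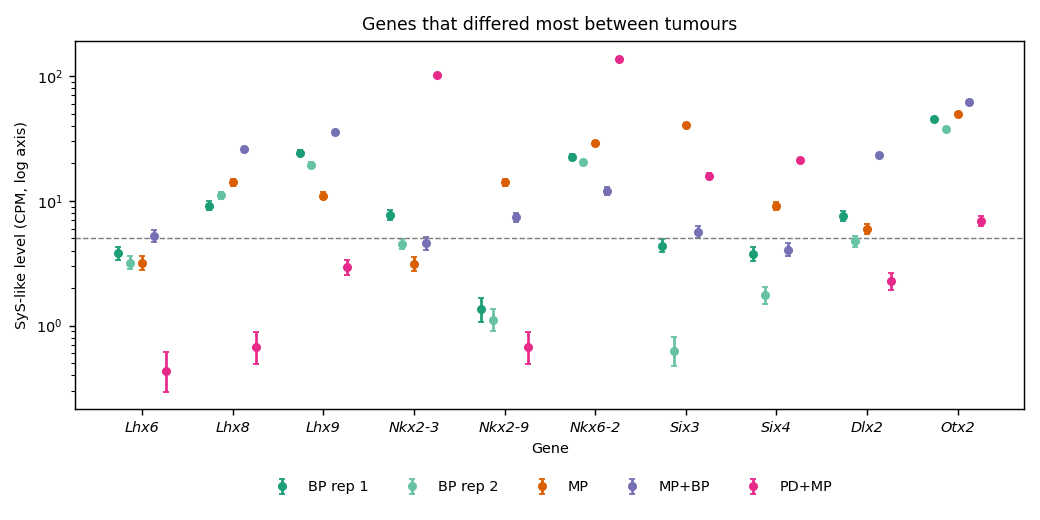
SyS-like levels (CPM, log axis) of 9 of the 10 genes whose highest tumour was at least 10 times the lowest, and of *Otx2*, with 1 point per tumour, 95% Poisson intervals that cover counting error only, and a dashed line at 5 CPM. PD+MP is highest for *Nkx2-3*, *Nkx6-2* and *Six4* and lowest for *Lhx6*, *Lhx8*, *Lhx9*, *Nkx2-9*, *Dlx2* and *Otx2*.

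To ask whether histology divided the genes, the 3 tumours labelled BP or MP+BP were compared with MP and PD+MP on their SyS-like sums. None of 20646 genes passed an edgeR adjusted p of 0.05 in either direction (0%), with 1880 genes and 15 of the 44 genes tested here at an unadjusted p under 0.05. DESeq2 called 1.40% of 27136 genes higher and 0.298% lower, among them *Emx1* (log2 fold change 2.49), *Dlx4* (2.82), *Emx2* (1.64) and *Msx1* (0.94) as higher with BP and *Six3* (-3.09) and *Six4* (-2.36) as lower. *Emx1* and *Dlx4* are among the genes under 5 CPM in every tumour. Without overlap between the 3 and the 2 tumours, 10 genes were higher with BP and 9 lower, against 15.5% and 10.1% of all genes. In simulated data 4% of 2-fold and 29% of 4-fold changes were recovered by edgeR in this comparison, so most changes of that size were not detectable. Whether the difference between SyS-like and stromal cells itself varied with the BP label was tested as an interaction, and again no gene of 18120 was called by edgeR, with 596 genes and 3 of these, *Dlx5* and *Msx2* among them, at an unadjusted p under 0.05, while DESeq2 called 47 genes. Without MP edgeR called 702 genes in this interaction and, between the tumours with and without BP, 383 genes with 4 of the 44 among them (*Lhx9* and *Otx2* higher, *Nkx6-2* and *Nkx2-3* lower), which leaves PD+MP as the only tumour without BP in the label.

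Levels also varied within a tumour. Over the SyS-like clusters with at least 100 cells of MP+BP, *Dlx2* ran from 9.83 to 60.8 CPM, *Lhx9* from 3.18 to 62.5 CPM, *Lhx5* from 20.1 to 81.9 CPM and *Msx2* from 17.0 to 84.5 CPM. These 4 genes peaked in 1 and the same cluster, led by *Trpm3*, *Sst* and *Npnt*, of which 91.9% of cells came from MP+BP. In PD+MP *Nkx2-3* ran from 4.72 to 116 CPM and *Nkx6-2* from 26.0 to 170 CPM over 6 clusters, both lowest in the cluster led by matrix genes. *Irx3* in BP replicate 1 ran from 14.5 to 114 CPM. *Meis1* ran from 109.5 to 317 CPM in the same tumour and from 56.1 to 358 CPM in MP+BP. Its lowest cluster in MP+BP was the one where *Dlx2*, *Lhx9*, *Lhx5* and *Msx2* peaked. These clusters were drawn from the same cells, so the ranges are a description.

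Single cells held few of these RNAs. With each cell thinned to 2000 UMIs, SyS-like cells held a mean of between 1.66 and 2.30 of the 50 genes, and between 82.9% and 91.6% held at least 1. Stromal cells held between 0.397 and 0.545, endothelial-like cells between 0.140 and 0.328 and macrophage-like cells between 0.0752 and 0.153. For *Meis1* the thinned share of SyS-like cells with a UMI was between 20.2% and 32.1% (unthinned between 49.1% and 68.8%). It was between 0.517% and 2.76% in macrophage-like cells (unthinned between 1.71% and 5.25%), where the part of carried-over RNA was not tested. For *Nkx2-3* it was 16.7% in PD+MP (unthinned 50.2%) and between 0.503% and 1.61% in the other tumours, against 0.841% of macrophage-like cells in PD+MP. For *Otx2* it was 1.32% in PD+MP and between 7.03% and 10.4% elsewhere, with at most 0.259% of macrophage-like cells.

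Several of the genes lie side by side on their chromosomes. Of 13 pairs within 1000 kb, 5 had both genes at 5 CPM or more in at least 1 tumour. Pearson's r of log2(CPM + 1) over 17 clusters was 0.83 for *Dlx1* and *Dlx2* (9.43 kb apart), 0.83 for *Irx1* and *Irx2* (665 kb), 0.78 for *Irx3* and *Irx5* (556 kb), 0.73 for *Dlx6* and *Dlx5* (9.24 kb) and 0.49 for *Irx2* and *Irx4* (626 kb). The median was 0.78, and over the 430 other pairs of genes at level it was 0.15, with a highest value of 0.95. The clusters share 5 libraries and differ in depth, so these values are a description without a test. *Six2*, 55.0 kb from *Six3*, stayed under 5 CPM in every tumour.

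**Figure D5:**
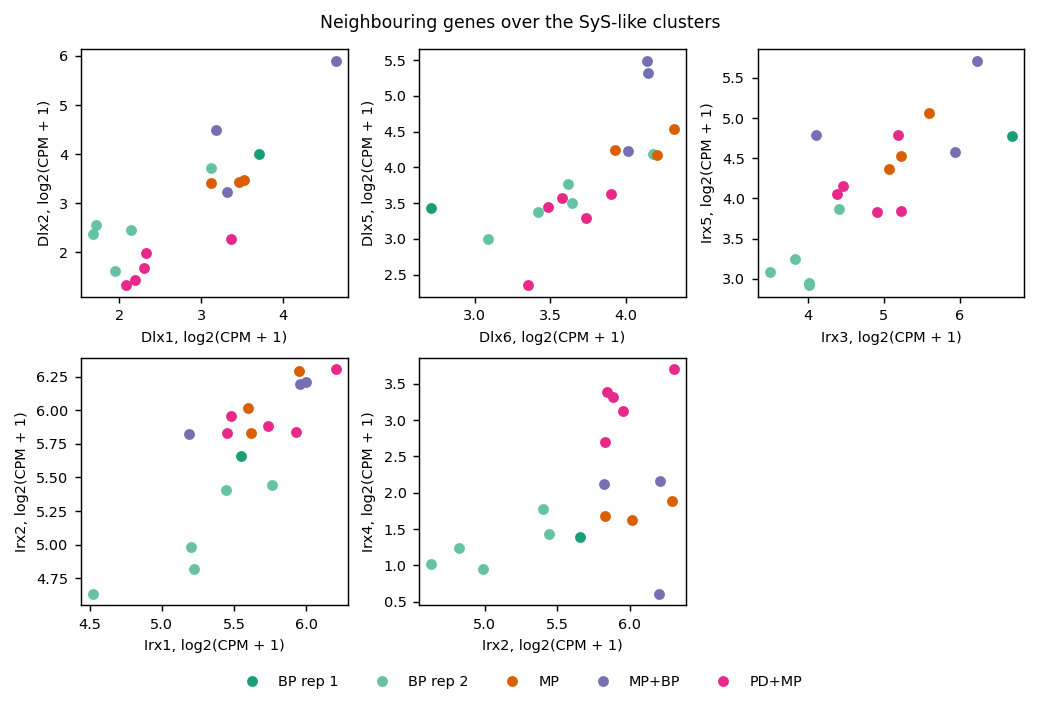
Levels of 5 pairs of neighbouring genes as log2(CPM + 1), with 1 point for each of the 17 SyS-like clusters, coloured by the tumour that gave most of its cells. *Dlx1* and *Dlx2* rise together (r 0.83), while in the *Irx2* and *Irx4* panel (r 0.49) the PD+MP clusters lie above the others.

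Of the 50 genes, 15 share exonic sequence with a counted gene on the opposite strand. Libraries of this kind keep the strand, but whether the counting used it is not given in the sources used here, so the division of reads between sense and antisense genes at these loci is uncertain. SyS-like cells held 23669 UMIs of *Otx2os1*, 5621 of *Nkx2-2os*, 4612 of *Emx2os* and 4171 of *Six3os1*. Of 9 antisense genes listed, 5 of 8 tested were higher than in stromal cells, and 8 of 9 were higher than in endothelial-like and than in macrophage-like cells, with none lower. The shares of all genes tested that were higher were 16.1%, 30.4% and 36.1%. *Otx2os1* changed by 4.83 (SE 0.28) and *Six3os1* by 4.41 (SE 0.61) over stromal cells, where *Nkx2-2os* had 3 UMIs in all.

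Genes that work with these factors were listed beside them. Of all genes tested, 16.1%, 30.4% and 36.1% were higher than in stromal, endothelial-like and macrophage-like cells. The shares lower were 13.3%, 22.8% and 26.3%. The counts of these short lists were not tested against these shares. Of 8 TALE partners (Pbx, Pknox and Tgif genes), 3 were higher and none lower than in stromal cells, 3 higher and 1 lower than in endothelial-like cells and 4 higher and 2 lower than in macrophage-like cells. *Pknox2* changed by 3.31 (SE 0.62) over stromal cells. Of 6 Eya and Dach genes, which encode cofactors of these proteins, 1 was higher and none lower than in stromal cells, and this was *Eya1*, a coactivator in muscle progenitors (3.47, SE 0.60). Against endothelial-like and macrophage-like cells 2 and 4 of the 6 were higher and 1 and 2 lower. Of 10 LIM partners and relatives, 7 were higher and 1 lower than in stromal cells, 7 higher and 3 lower than in endothelial-like cells and 6 higher and 1 lower than in macrophage-like cells. *Lmo3* changed by 3.84 (SE 0.35) and *Lmx1a* by 2.96 (SE 0.65) over stromal cells, while *Isl1*, higher in all 3 comparisons, was at most 2.59 CPM with 1 stromal UMI, and the 1 lower gene was *Ldb2* (-5.64), which codes for a LIM-binding cofactor.

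Of 49 other homeobox genes outside these families and the Hox clusters, 19 of 37 tested were higher and 2 lower than in stromal cells, 29 of 36 higher and 3 lower than in endothelial-like cells, and 29 of 35 higher and 2 lower than in macrophage-like cells. The shares of all genes are those given with the partner genes. *Dbx1* (5.20, SE 0.61) and *Dbx2* (3.70, SE 0.53), genes of neural tube progenitors, were among those higher than in stromal cells. *Phox2a* (-4.69) and *Prrx1* (-3.34), a gene of limb mesenchyme, were lower than in stromal cells. Against endothelial-like and macrophage-like cells *Prrx1* was called higher. The study listed genes silent in cells of origin and active in SyS, and 8 of the 50 genes are on that list (*Irx1*, *Irx2*, *Lhx1*, *Lhx5*, *Lhx9*, *Dlx6*, *Msx2* and *Nkx6-2*). Of the other 177 genes of that list, 117 of 167 tested were higher and 3 lower than in stromal cells, 132 of 162 higher and 4 lower than in endothelial-like cells and 139 of 162 higher and 4 lower than in macrophage-like cells. The list was defined in an associated paper that compared SyS cells with mesenchymal stromal cells of origin. Its genes were chosen for activity in SyS cells, so their direction here is not independent evidence.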

How the data were processed

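The 5 tumours of *hSS2* mice were dissociated and sequenced with the 10x Genomics 3′ v3.1 chemistry, and the authors made the deposited matrices of UMI counts with Cell Ranger 7.2.0 (per the file headers) against mm10. The counts were not normalized, and called cells had been selected by the authors. Whether intronic reads or strand were used in counting is not given in the sources used here. Coordinates are from GENCODE M21 (GRCm38). No columns of the authors' own comparisons were present.

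Cells with at least 750 genes and at most 25% mitochondrial counts were kept, and Scrublet scores were used to remove the expected share of doublets (0.8% per 1000 cells), 2957 cells against 622 at the automatic threshold. Pearson residuals of 3000 features, without the 50 genes, gave 30 principal components, and Leiden clusters (resolution 1) were named from markers. The classes were rebuilt here and are not the authors' annotation. The reference used for leading genes was chosen after the first choice had left 2 clusters with SyS markers unnamed. Unnamed clusters held 2797 cells and entered no comparison.

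Sums of UMIs over the cells of a class within a tumour were compared with edgeR 4.0.16 in R 4.3.3 (quasi-likelihood, TMM scaling, filterByExpr, the tumour as a block) over all genes, with Benjamini-Hochberg adjustment over all genes tested and a threshold of 0.05. CPM used all UMIs of a sum. DESeq2 1.42.0 was an alternative. Poisson and binomial intervals are at 95% and cover counting error only. On simulated data edgeR recovered 14%, 54% and 40% of 2-fold and 59%, 90% and 90% of 4-fold changes against stromal, endothelial-like and macrophage-like cells. The tumours are separate samples in the labels, and p-values measure the spread between them. Whether the BP tumours share an animal is not known, and if they do, part of this spread lies within that animal.

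Values were given for each of the 50 genes that reached 5 CPM in SyS-like cells of at least 1 tumour. From each list of partner genes the 3 with the largest log2 fold change among those called the same way in all 3 comparisons were named, and *Ldb2*, *Phox2a* and *Prrx1* were named after their values were seen. A few genes that these rules name are counted but not reported here. The 50 genes and the lists were chosen with earlier results of these data known.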

Additional observations from a re-analysis of the deposited data

Results flagged for a closer look

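Among 30 of the 31 genes at 5 CPM or more in SyS-like cells of at least 1 tumour, 3 had 1 tumour far from the other 4 by Dixon's test, where chance gives about 1 in 20, and in all 3 it was PD+MP. Of all 12712 genes at that level 7.94% had such a tumour, and in 5.98% it was PD+MP. The count of 3 in 30 is close to these shares of all genes, and the difference was not tested. *Nkx2-3* was at 102 CPM in PD+MP, above the other tumours. *Otx2* was at 6.91 CPM and *Lhx6* at 0.434 CPM in PD+MP, below them. PD+MP is the 1 tumour with poorly differentiated histology and also the 1 with *Uty* RNA, so these cannot be told apart.

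Of the clusters left without a name, 1 of 2284 cells, 51.2% of them from MP+BP, carried 6 SyS markers but was led by *Col1a1*, *Col3a1* and *Sst* and entered no comparison. Its levels exceeded the highest mean of any named class by between 2.16 and 3.01 times for *Six4* (23.9 CPM), *Irx3* (68.8 CPM), *Irx5* (39.97 CPM), *Dlx2* (24.4 CPM), *Dlx3* (6.04 CPM), *Dlx5* (44.4 CPM), *Lhx4* (7.17 CPM) and *Lhx8* (26.8 CPM). Against the SyS-like level of the same mix of tumours the folds were between 1.498 (*Lhx8*) and 5.88 (*Six4*). Of all genes at 5 CPM or more in the cluster 3.10% exceeded the class means by 2 times. *Irx3* and *Irx5* are neighbours. In an unnamed cluster of 71 cells *Emx2* was at 42.0 CPM, from 10 UMIs.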

How the results depend on the processing

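Over the alternatives of scaling, filter, tool, doublets, cell filter, cluster resolution, naming rule (chosen after seeing the data), comparator and left-out tumour, 30 of the 31 genes kept direction and side of the threshold in 468 of 475 results against endothelial-like, 477 of 478 against macrophage-like and 438 of 502 against stromal cells. With at least 10 counts in every sum few genes could be tested, and 3, 1 and 3 of the 50 were higher than in stromal, endothelial-like and macrophage-like cells, with 2944, 4337 and 6070 genes called in all. With SyS-like sums thinned to the comparator 13 and 22 were higher than in stromal and endothelial-like cells. Leaving out 1 tumour gave between 20 and 29, between 32 and 35, and between 34 and 38 genes higher in the 3 comparisons. Both classes of a comparison come from the same tumours, so the tumour is a block, and without the block 24, 33 and 36 genes were higher. Over stromal cells calls were lost for *Lhx6* (13 alternatives), *Six4* (8), *Dlx5* (7), *Irx5* (6), *Irx3* (5), *Six5* (5), *Nkx6-1* (2) and *Nkx2-9* (1, edgeR adjusted p = 0.051 without the block), and over endothelial-like cells for *Lhx6* and *Irx3* (3 each) and over macrophage-like cells for *Meis3* (1). The cause was not tested.

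Uncalled differences changed sign for *Emx2* and *Six4*. Over stromal cells *Emx2* was 0.24 without scaling, 0.050 without the filter, 0.064 with doublets kept, 0.12 with 1500 genes per cell, 0.039 at resolution 2, 0.23 without the block, 0.016 with automatic doublets, 0.0066 thinned, 0.37 over pericyte-like cells, and between -0.40 and 0.37 with 1 tumour left out. *Six4* over endothelial-like cells was between -0.18 (without MP) and 0.82 with 1 tumour left out.

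For the BP label DESeq2 called 461 genes, 7 of them among the 44, and leaving out 1 tumour gave between 0 and 383 genes and between 0 and 4 of the 44, where a lone tumour is assumed to vary like the others. For the interaction DESeq2 called 47 genes and the fit without the filter 11, each with 1 of the 50, and leaving out 1 tumour gave between 0 and 702 genes and between 0 and 1 of the 50. No paired analysis was possible because the tumours with and without BP in the label share no animal or batch label. Genes on were 15 in BP replicate 2 and 24 in MP+BP at a fold of 2, 1, 13 and 2 in BP replicate 2, MP and MP+BP with doublets kept, 4 in MP+BP with automatic doublets, 5 and 14 in BP replicate 2 and MP+BP with 1500 genes per cell, 15 in MP+BP at resolution 2 and 6 in PD+MP over pericyte-like cells. The small stromal sums limit what can be called on.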
